A study of Mus musculus with 8 samples.

Results

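Neurexins and neuroligins are adhesion molecules that meet across the synaptic cleft, the neurexins mostly on the presynaptic side and the neuroligins on the postsynaptic side. Among the neuroligins, Nlgn1 is best known from glutamatergic synapses and Nlgn2 from GABAergic synapses, and Nlgn3 is found at both. In interneurons, which receive both kinds of synapse and form GABAergic ones, neurexins also bind a range of secreted and membrane ligands other than neuroligins. The rows of Nlgn1, Nlgn2, Nlgn3, Nrxn2 and Nrxn3 were taken from the deposited table by their symbols, which gave 5 genes of the 56576 listed.

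The libraries hold RNA bound to HA-tagged ribosomes in synaptosomes of the mouse neocortex at postnatal day 15. The 4 controls were Lhx6-Cre;Erbb4+/+;Rpl22HA/HA (replicates 1, 3, 4 and 5) and the 4 Erbb4 mutants were Lhx6-Cre;Erbb4F/F;Rpl22HA/HA (replicates 2, 3, 4 and 5), so every animal carried both the Cre allele and the tagged ribosomal protein. Lhx6-Cre recombines in young postmitotic interneurons born in the medial ganglionic eminence (MGE) and preoptic area. Both the tag and the loss of Erbb4, a neuregulin receptor, depend on that recombination, and whether it also took place in other cells was not tested here. The question was which ribosome-bound transcripts differ at synapses when these interneurons lack Erbb4.

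Values are normalized counts, that is, reads on the constitutive regions of a gene divided by 1 size factor per library. The libraries held 51010687 to 80226984 reads on genes, and the counting error of the 5 genes was at most 10.1% of a value (Nlgn2, 99 reads in control 1), against a spread between libraries of 16.8% to 52.6% of the mean within a genotype. Erbb4 itself had 1640, 5377, 4306 and 3034 normalized counts in control replicates 1, 3, 4 and 5, and 1711, 1648, 1233 and 1048 in mutant replicates 2, 3, 4 and 5. The library labelled control 1 lay below mutants 2 and 3 for this gene, and it also had the fewest genes above 0 (28247, against 31141 to 34364 in the other 7 libraries). The log2 fold change of each of the 5 genes is therefore also given without it. The methods of the study describe its biological replicates as samples of separate brains and litters, whereas no label names the animals or the sequencing batch of a library. The defining transcripts of other cell types were present as well: markers of excitatory neurons, led by Slc17a7, the vesicular glutamate transporter VGluT1, summed to 116263 to 156544 normalized counts in controls and 114053 to 139944 in mutants, against 26594 to 79247 and 15036 to 39928 for the MGE-derived interneuron markers. Such sums depend on which genes are listed, and do not measure the share of a cell type. Slc17a7 alone had a mean of 109118 in controls. The somatostatin-cell markers, also of the MGE lineage but listed apart, summed to 58550 to 501695 in controls and 18621 to 201868 in mutants. How much of each neuroligin or neurexin signal came from tagged ribosomes was not tested, and in such bulk samples fewer cells of a type cannot be told apart from less RNA per cell.

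The members lie on 5 chromosomes of the mouse genome (build mm10). Nlgn1 (GSMG0025214 in the gene annotation of the table) spans chr3:25421808-26331909, Nlgn2 (GSMG0006888) chr11:69823122-69837786, Nlgn3 (GSMG0071980) chrX:101299179-101321348, Nrxn2 (GSMG0019341) chr19:6418737-6544169 and Nrxn3 (GSMG0008369) chr12:88722874-90334931. Their coding sequences are similar enough to ask whether reads of one paralog could be counted for another, so the longest identical stretches were searched in GENCODE M21, which uses the same build. The coding sequences of Nlgn1 and Nlgn3 were 69.9% identical, those of Nlgn2 and Nlgn3 69.6%, those of Nlgn1 and Nlgn2 66.4% and those of Nrxn2 and Nrxn3 69.0%. The longest identical run in each family was 23 bases. It is shown in capitals below, with 18 bases of coding sequence on either side, for Nlgn1 (chr3:25436336-25436394, minus strand) and Nlgn3 (chrX:101318177-101318235, plus strand), and for Nrxn2 (chr19:6490803-6490861, plus strand) and Nrxn3 (chr12:89510594-89510652, plus strand). Each lies within 1 coding exon.
Nlgn1: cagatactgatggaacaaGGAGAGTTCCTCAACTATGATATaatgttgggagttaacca
Nlgn3: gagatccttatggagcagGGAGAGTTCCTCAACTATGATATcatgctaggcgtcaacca
Nrxn2: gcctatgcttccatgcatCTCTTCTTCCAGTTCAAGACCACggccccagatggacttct
Nrxn3: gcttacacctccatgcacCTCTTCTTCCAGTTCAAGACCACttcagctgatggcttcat
The 5 genes shared 0 words of 25 bases among their longest-coding transcripts. Overlapping genes are another matter, because the library kit does not mark strand: in GENCODE, Slc22a12 lies within Nrxn2 on the other strand, and the transcript Gm21986 overlaps Nlgn3 on the same strand. Also on the other strand, among others, are Gm14964 (Nrxn2), A830092H15Rik (Nlgn1) and Gm37980 (Nrxn3). Rows of the table at these 3 places overlap exons and had control means of 679, 102 and 314 normalized counts, against 14.5 for Slc22a12. Their part in the counts of the 5 genes was not tested.

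In the limma fit used here, none of the 5 genes passed the thresholds of the study. These ask for an unadjusted p-value of 0.05 or less and a change of 1.5-fold or more. Over all 31171 genes tested with limma (those with a mean of at least 10 normalized counts in at least 1 genotype, which all 5 genes passed), 7.15% were called, 3.17% lower and 3.98% higher in mutants. In each of the 5 genes the libraries of the genotypes overlapped, and over all genes 4.93% did not overlap. All 5 log2 fold changes lay below 0, as did 46.6% of those of all genes. The count of genes called at an adjusted p of at most 0.05 was 14 over the table (0.0449%, all lower), and 0 among the 5. With no limit on the fold, an unadjusted limma p of at most 0.05 was met by 3.77% of all genes lower and 4.56% higher in mutants, and by 0 of the 5. On the recovered reads, edgeR and DESeq2 each called 0 of the 5, and 0 were called by limma whichever library was left out. With limma's weights for library quality 1 was called, Nrxn3, but that fit called more genes throughout, 3630 of the 31171, 1633 of them lower. A limma fit with the replicate number as a term called 2, and 3164 genes in all. These 2 were Nlgn3 (-0.59, unadjusted p = 0.0026) and Nrxn3 (-0.85, unadjusted p = 0.0027). Control 1 and mutant 2 do not bear on the genotype difference in that fit, and no label makes the numbers a pairing.

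**Figure D1:**
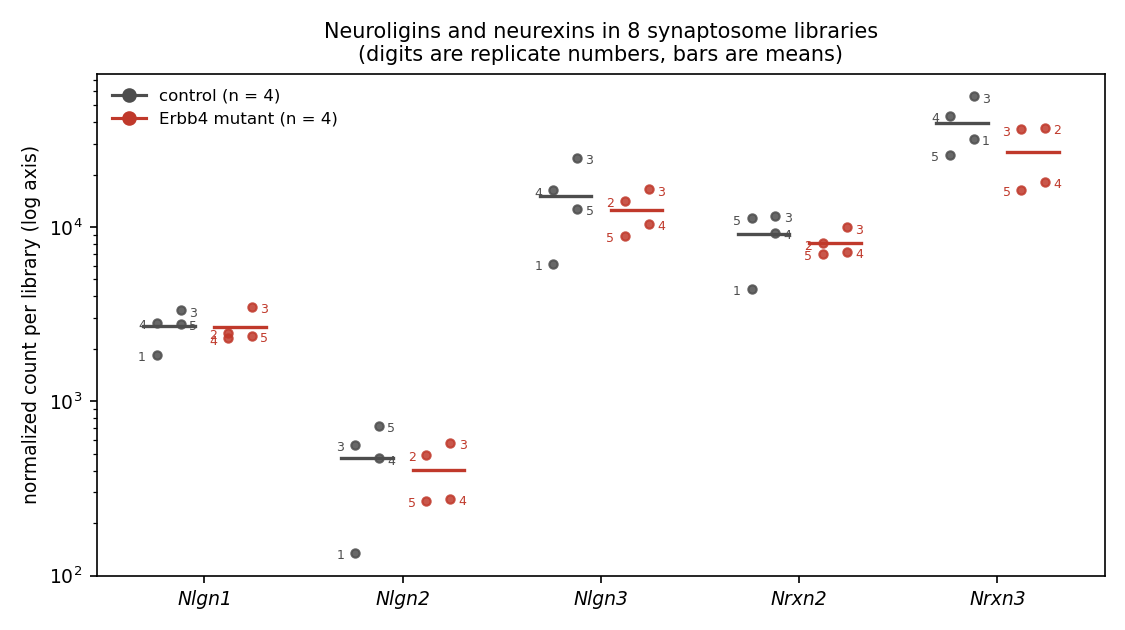
Normalized counts (log axis) of the 5 genes in each library, with controls in grey and Erbb4 mutants in red, replicate numbers beside the points and bars at the means. The library labelled control 1 is the lowest of 8 for Nlgn1, Nlgn2, Nlgn3 and Nrxn2, and the genotypes overlap for every gene.

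Nlgn1, the neuroligin of glutamatergic synapses, had 1849, 3328, 2808 and 2778 normalized counts in control replicates 1, 3, 4 and 5 and 2479, 3487, 2300 and 2368 in mutant replicates 2, 3, 4 and 5. The genotypes were interleaved, with mutant 3 the highest and control 1 the lowest of the 8 libraries. The log2 fold change was -0.01 (95% interval -0.52 to 0.50, limma, n = 4 per genotype; adjusted p = 0.99), so the interval ended short of a 1.5-fold change in either direction. Without control 1 it was -0.18 (limma, unadjusted p = 0.40), and without control 3 it was 0.11 (limma, unadjusted p = 0.67). Its residual spread between libraries was at percentile 15.2 of all genes tested, the lowest of the 5.

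Nlgn2, which recruits gephyrin and GABA-A receptors at inhibitory synapses, had 135, 565, 470 and 726 normalized counts in control replicates 1, 3, 4 and 5 and 493, 577, 276 and 269 in mutant replicates 2, 3, 4 and 5. The value of control 1 stood below all others, and the other 3 controls covered the range from below the upper 2 mutants to above them. The log2 fold change of -0.08 had the widest interval of the 5 genes, -1.20 to 1.05 (limma, n = 4 per genotype; adjusted p = 0.97). Without control 1 it was -0.60 (unadjusted p = 0.12), and without control 3 it was 0.087 (limma, unadjusted p = 0.88). At this spread, a change of more than 2-fold in either direction (0.44-fold to 2.06-fold) lies within the interval.

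Nlgn3, the neuroligin found at both kinds of synapse, had 6128, 24939, 16228 and 12729 normalized counts in control replicates 1, 3, 4 and 5 and 14161, 16462, 10414 and 8867 in mutant replicates 2, 3, 4 and 5. The controls spanned the whole range, with the lowest and the highest of the 8 libraries among them. The log2 fold change was -0.14 (95% interval -0.98 to 0.71, limma, n = 4 per genotype; adjusted p = 0.92) and, without control 1, -0.51 (unadjusted p = 0.11). Without control 3 it was 0.16 (limma, unadjusted p = 0.65). The study took Nlgn3 for follow-up from the genes that it found lower in mutants in these same libraries, with DESeq2 and the thresholds above. The Nlgn3 values here are therefore not independent evidence of a direction. DESeq2 on the recovered reads gave a log2 fold change of -0.24 here (unadjusted p = 0.53), which did not pass.

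Nrxn2 encodes a presynaptic neurexin with long alpha and short beta forms. It had 4398, 11635, 9242 and 11217 normalized counts in control replicates 1, 3, 4 and 5 and 8050, 9956, 7178 and 7018 in mutant replicates 2, 3, 4 and 5. Apart from control 1, all 3 controls lay above 3 of the 4 mutants, and mutant 3 lay between the controls. The log2 fold change was -0.10 (95% interval -0.76 to 0.56, limma, n = 4 per genotype; adjusted p = 0.92) with control 1 and -0.42 without it (unadjusted p = 0.055). Without control 3 it was 0.051 (limma, unadjusted p = 0.88).

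Nrxn3, the paralog of Nrxn2, was the gene that lay furthest from no change. It had 31961, 56221, 43431 and 25845 normalized counts in control replicates 1, 3, 4 and 5 and 37063, 36296, 18183 and 16316 in mutant replicates 2, 3, 4 and 5. Mutants 4 and 5 were below all controls, whereas mutants 2 and 3 lay within the control range. The log2 fold change was -0.58 (95% interval -1.35 to 0.18, limma, n = 4 per genotype; unadjusted p = 0.12, adjusted p = 0.59), and without control 1 it was -0.66 (unadjusted p = 0.11). Without control 3 it was -0.39 (limma, unadjusted p = 0.29). With limma's weights for library quality, Nrxn3 passed both thresholds, at -0.89 (unadjusted p = 0.013). Unlike in the other 4 genes, the lowest control was replicate 5.

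**Figure D2:**
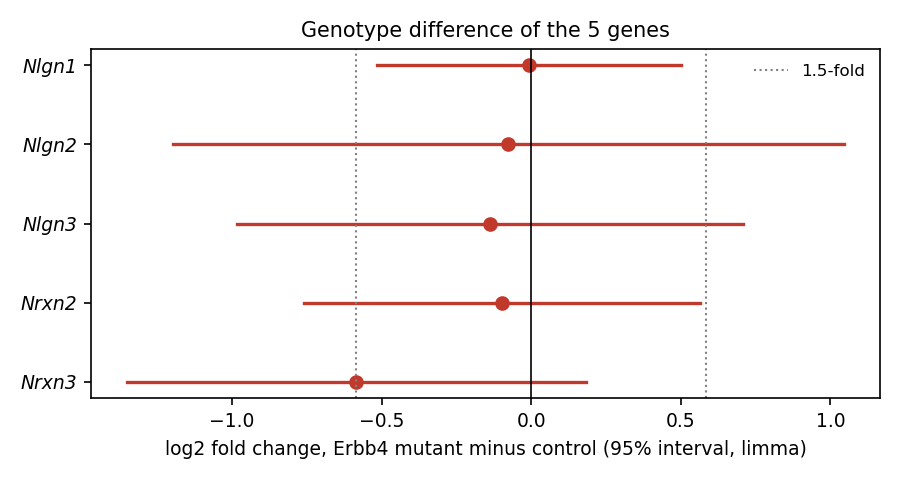
Log2 fold change of each gene, Erbb4 mutant minus control, with its 95% interval from limma (4 libraries per genotype) and dotted lines at 1.5-fold. Every interval includes 0, and the Nlgn1 interval, -0.52 to 0.50, is the only one that stays within both dotted lines.

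Interneuron markers varied over the same libraries. Sst, the somatostatin gene that marks 1 of the main MGE-derived types, had 186458, 367992, 96107 and 31270 normalized counts in control replicates 1, 3, 4 and 5 and 143143, 133970, 27867 and 5964 in mutant replicates 2, 3, 4 and 5. The lowest values in each genotype (control 5, mutants 4 and 5) fell in the libraries that were also lowest for Nrxn3. Lhx6, the transcription factor of the lineage, had 1130, 1781, 1280 and 701 in controls and 899, 964, 577 and 532 in mutants, with a log2 fold change of -0.69 (limma, unadjusted p = 0.055, adjusted p = 0.58). Of the tested MGE-derived interneuron markers, 2 of 12 were called lower and 0 higher, with a median log2 fold change of -0.65 beside 0.06 over all genes tested. Over all genes tested, 3.17% were called lower and 3.98% higher. The parvalbumin-cell markers, led by Pvalb, had 4 of 8 called lower (median -1.06; sums of 26012 to 115106 in controls and 13245 to 41328 in mutants), and the somatostatin-cell markers 1 of 8 (median -1.04; sums of 58550 to 501695 and 18621 to 201868). Rpl22, whose product carries the tag, had 1358, 606, 542 and 806 in controls and 695, 640, 554 and 400 in mutants. The part of these shifts in the Nrxn3 values was not tested.

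Between genes, levels can be compared only per length. The lengths of the constitutive regions that were counted are not given in the sources used here, so 3 lengths from GENCODE were used in turn: the longest-coding transcript, the union of all exons and the coding sequence. Per kb of the longest-coding transcript, the control means were 4969 ± 1691 normalized counts for Nrxn3, 1757 ± 917 for Nlgn3, 1445 ± 526 for Nrxn2, 617 ± 141 for Nlgn1 and 94.7 ± 49.9 for Nlgn2 (SD, n = 4). The order of the means was the same with the other lengths. Neighbours in this order were compared within libraries: Nrxn2 was above Nlgn1, and Nlgn1 above Nlgn2, in 8 of 8 libraries with each of the 3 lengths. Nrxn3 was above Nlgn3 in 8 of 8 libraries with transcript or exon-union length and in 6 of 8 with coding length. Nlgn3 was above Nrxn2 in 6 of 8 libraries with transcript length (mean log2 ratio 0.19 ± 0.30, SD, n = 8) and in 8 of 8 with the other lengths, so these neighbours did not differ beyond their spread with transcript length.

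The make-up of the neuroligin pool differed between genotypes by less than the spread between libraries. Per kb of transcript, Nlgn3 made up 69.0% ± 6.9 of the 3 neuroligins in controls and 67.6% ± 3.2 in mutants (SD, n = 4), Nlgn1 27.2% ± 6.9 and 28.8% ± 3.6, and Nlgn2 3.81% ± 1.79 and 3.66% ± 0.58. These shares depend on the length that is chosen: with coding length, Nlgn1 made up 16.5% of the pool in controls and Nlgn3 80.9%. Nlgn2 was the smallest share with each of the 3 lengths, at most 6.85% in any library. An unnamed row of the table inside the last exon of Nlgn2 is not counted in these levels and shares. With its reads added to Nlgn2, the share of Nlgn2 per kb of transcript was 11.1% ± 4.7 in controls and 7.61% ± 0.90 in mutants (SD, n = 4), with 16.9% in control 1, and it ran up to 18.8% per kb of exon union. Nlgn1 then lay above Nlgn2 in 8 of 8 libraries with transcript or coding length and in 6 of 8 with exon-union length, all but controls 1 and 5.

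Within a library, the ratio of a pair of genes does not depend on the size factor, so the paralogs were compared as differences of log2(normalized count + 1). Nlgn1 minus Nlgn2, the excitatory-side against the inhibitory-side neuroligin, was 3.77, 2.56, 2.58 and 1.93 in control replicates 1, 3, 4 and 5 and 2.33, 2.59, 3.06 and 3.13 in mutant replicates 2, 3, 4 and 5. Control 1 had the highest difference, and the other 3 controls overlapped the mutants. The genotypes differed by 0.07 (mutant minus control, 95% interval -0.98 to 1.12; exact permutation test, two-sided, p = 0.91). Without control 1 the difference was 0.42, and without control 5 it was -0.19, so its sign rested on single libraries.

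The other pairs within the families did not pass the test either. Nlgn1 minus Nlgn3 was -2.34 ± 0.50 in controls and -2.21 ± 0.25 in mutants, a difference of 0.13 (95% interval -0.55 to 0.82; exact permutation p = 0.69, n = 4 per genotype), and of 0.33 without control 1. Nlgn2 minus Nlgn3 differed by 0.06 (95% interval -0.75 to 0.88; exact permutation p = 0.94), and by -0.09 without control 1. Nrxn2 minus Nrxn3 was -2.86, -2.27, -2.23 and -1.20 in control replicates 1, 3, 4 and 5 and -2.20, -1.87, -1.34 and -1.22 in mutant replicates 2, 3, 4 and 5. Here 3 of 4 controls lay below all mutants and control 5 above them, and the difference was 0.49 (95% interval -0.53 to 1.499; exact permutation p = 0.29), or 0.25 without control 1. Across the 10 pairs of the 5 genes, the smallest p was that of Nlgn1 minus Nrxn3, 0.58 (95% interval -0.22 to 1.37; exact permutation p = 0.11), where 4 against 4 libraries allow p = 0.029 at the least. Of the 10 pairs, 0 had an unadjusted or an adjusted p of at most 0.05 over all 8 libraries. Without control 1, Nlgn1 minus Nrxn2 differed by 0.24 (exact permutation p = 0.029, before adjustment), in place of 0.09 with it. Without control 5, Nlgn2 minus Nrxn3 differed by 0.97 (exact permutation p = 0.029, before adjustment), in place of 0.51, and 0 pairs passed after adjustment in either case.

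**Figure D3:**
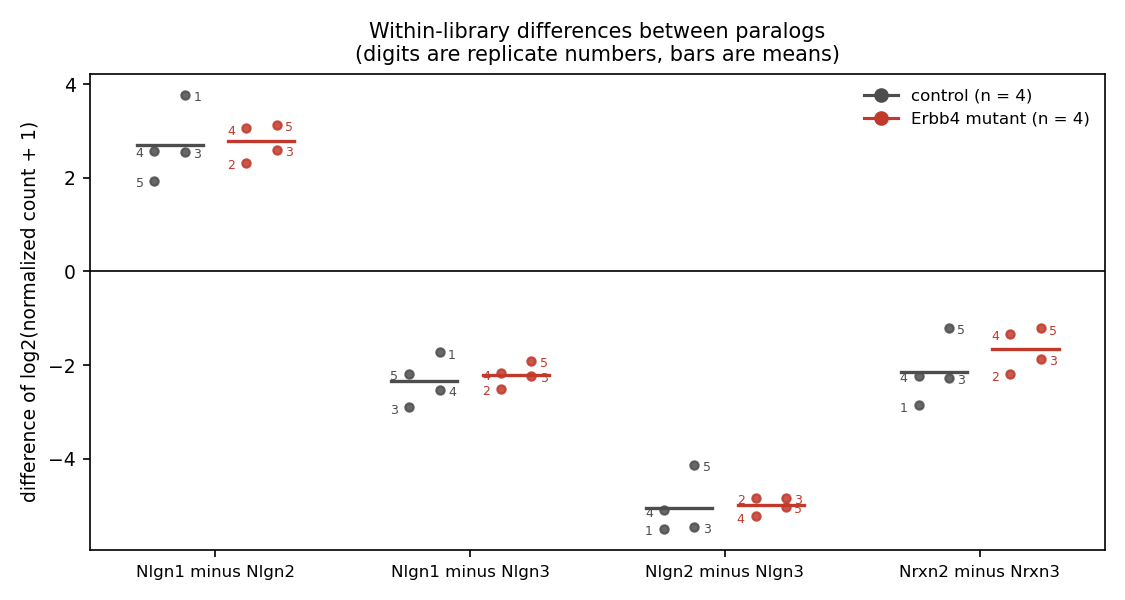
Difference of log2(normalized count + 1) between paralogs in each library, controls in grey and Erbb4 mutants in red, with replicate numbers and bars at the means (n = 4 per genotype). The genotype means of Nlgn1 minus Nlgn2 are 2.71 and 2.78, and the points of the genotypes overlap in each pair.

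How the genes varied over libraries was compared as the root mean square difference of their deviations from the genotype means, in log2 units, over 8 libraries. The closest pair of members was Nlgn1 and Nrxn2 (0.20) and the most distant Nlgn2 and Nrxn3 (0.69). Among 13761 genes with a mean of at least 100, those nearest to Nrxn3 were Pcdh8, a protocadherin (0.061), and Clstn2, a calsyntenin of the synaptic membrane (0.065). Nlgn3 had Klhl9 (0.118) and Erbb4 (0.119) as its nearest genes. Nlgn1 was nearest to Daam1 (0.048) and the somatostatin receptor gene Sstr4 (0.051), Nrxn2 to Rhbdl3 (0.075) and Fbxl18 (0.082), and Nlgn2 to Knl1 (0.20) and Igdcc4 (0.21). These distances describe the same 8 libraries, which differed from one another in depth and in the sums of cell type markers. The part of these differences in the distances was not tested.

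An unnamed row of the table (GSMG0005419, chr11:69823235-69823608, 374 bases) lies inside the last exon of Nlgn2, and was looked at after its values were seen. It had 1027, 947, 494 and 872 normalized counts in control replicates 1, 3, 4 and 5 and 441, 725, 333 and 369 in mutant replicates 2, 3, 4 and 5. Control 1, which was lowest for Nlgn2, was the highest here. The row was called lower in mutants, with a log2 fold change of -0.85 (95% interval -1.57 to -0.13, limma, n = 4 per genotype; unadjusted p = 0.025, adjusted p = 0.58), and it missed the threshold without control 1 (-0.74, unadjusted p = 0.061), and likewise without control 3 or 5 or mutant 4 or 5 (-0.81 to -0.71). The ratio of this row to Nlgn2 was 7.61 in control 1 and 0.89 to 1.68 in the other 7 libraries. With the reads of both rows added up, the genotypes differed by -0.63 on the log2 scale (95% interval -1.38 to 0.12; exact permutation test, two-sided, p = 0.11), and Nlgn1 minus this sum differed by 0.62 (exact permutation p = 0.086). Whether the row holds reads of Nlgn2 transcripts was not tested.

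**Figure D4:**
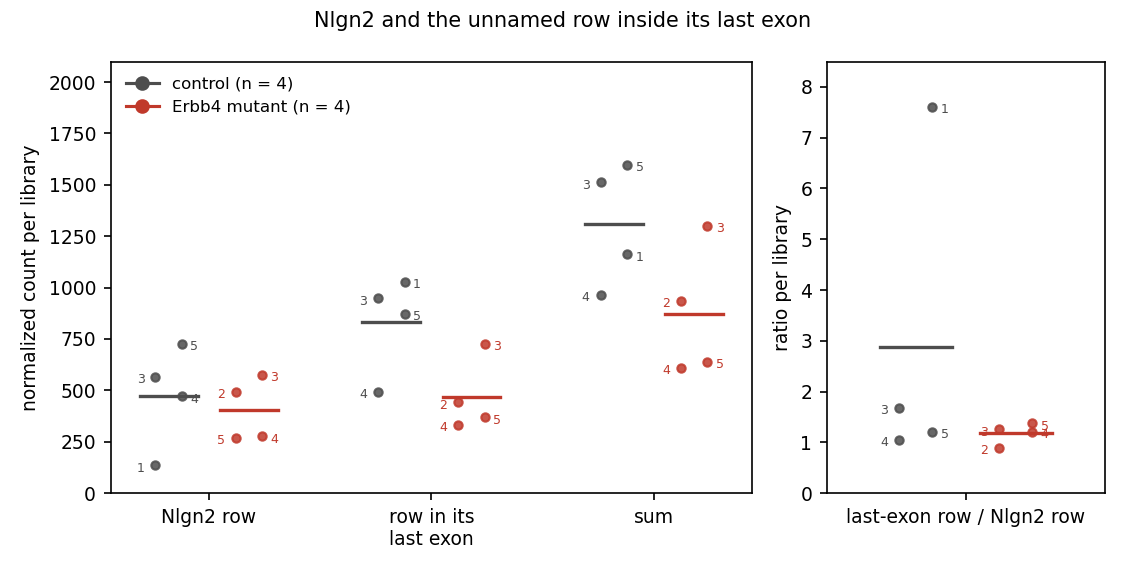
Left, normalized counts of Nlgn2, of the unnamed row in its last exon and of their sum in each library. Right, the ratio of the row to Nlgn2; controls are grey, Erbb4 mutants red, bars are means (n = 4 per genotype), and the ratio of control 1, 7.61, stands apart from 0.89 to 1.68 in the others.

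Unnamed rows also lie within the long introns of Nlgn1 and Nrxn3 and, as with the row in Nlgn2, were noticed in the data. Nlgn1 holds 30 such rows over 78.5 kb, which summed to 14800, 17070, 15312 and 17000 normalized counts in control replicates 1, 3, 4 and 5 and to 20228, 20446, 12415 and 10696 in mutant replicates 2, 3, 4 and 5. The sum was 5.96 times the count of Nlgn1 itself in controls, and 1 row alone (chr3:25854088-25857811) had 3545 ± 456 normalized counts in controls against 2691 ± 615 for the gene (SD, n = 4). Per kb, the intron rows held 204 ± 14.8 normalized counts in controls, against 617 for the longest-coding Nlgn1 transcript and 227 for the union of its exons. In Nrxn3, 34 rows over 107.6 kb held 147 ± 11.4 normalized counts per kb in controls, against 4969 for the longest-coding transcript, and summed to 0.40 times the gene. The intron sums of both genes were higher in mutants 2 and 3 than in every control and lower in mutants 4 and 5 than in every control. Taken singly in the limma fit, 1 of the 30 rows in Nlgn1 was called lower and 0 higher, and 0 of the 34 in Nrxn3 were called. The genotypes differed by -0.06 for the sum of the Nlgn1 introns (95% interval -0.67 to 0.54; exact permutation p = 0.74) and by -0.14 for the Nrxn3 introns (95% interval -0.82 to 0.54; exact permutation p = 0.60). Nrxn3 minus its intron rows differed by -0.44 (95% interval -1.09 to 0.20; exact permutation p = 0.23), and the adjusted p was 0.80 for each of the 6 tests of this kind, those on Nrxn2 and its 3 intron rows included.

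**Figure D5:**
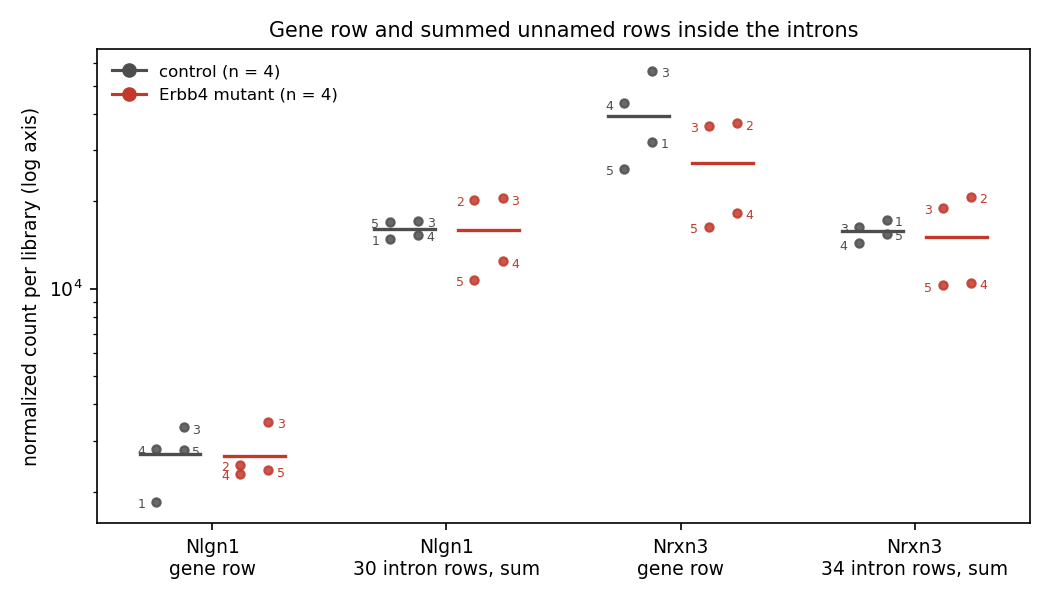
Normalized counts (log axis) of Nlgn1 and Nrxn3 and of the summed unnamed rows inside their introns, per library, controls in grey and Erbb4 mutants in red, bars at the means (n = 4 per genotype). The intron sum of Nlgn1 lies above the gene in all 8 libraries, that of Nrxn3 below the gene in all 8, and mutants 2 and 3 lie above mutants 4 and 5 in both sums.

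The partners of neurexins and neuroligins were described by 6 lists of 68 genes, all of which were tested. At the thresholds of the study 5 were called lower and 3 higher, against 3.17% and 3.98% of all genes, and 0 passed an adjusted p of at most 0.05. Without control 3, 1 was called lower and 3 higher.

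The secreted neurexin ligands held 4 of the 5 lower calls among their 16 genes, with a median log2 fold change of -0.49, and 15 of the 16 lay below 0 (46.6% of all genes). Nxph3, a neurexophilin that binds alpha-neurexins, had 1108, 1085, 587 and 636 normalized counts in control replicates 1, 3, 4 and 5 and 340, 490, 367 and 474 in mutant replicates 2, 3, 4 and 5, with no overlap (log2 fold change -0.99, limma, unadjusted p = 0.0063, adjusted p = 0.58). Car11, a secreted carbonic anhydrase-related protein, had 6797, 7491, 4451 and 4164 in controls and 3113, 3222, 3684 and 3379 in mutants, again with no overlap (-0.73, unadjusted p = 0.0077, adjusted p = 0.58). Both genes were lower in all 4 mutants than in any control. Sparcl1, the astrocyte-secreted protein hevin that bridges neurexins and neuroligins, fell by 0.84 on the log2 scale (unadjusted p = 0.038), with its highest value, 388575, in control 1. Sparcl1 did not overlap either, by a narrow gap (lowest control 138794, highest mutant 138420), nor did Car10 (3887 and 3878), which was not called. Over all genes 4.93% did not overlap. Nxph2 had 1399, 3449, 1516 and 721 in controls and 1265, 974, 442 and 201 in mutants, with overlap, and fell by 1.39 on the log2 scale (unadjusted p = 0.038). Nxph3 was called whichever library was left out, and Car11 in each case but that of control 3 (-0.58). Without control 1, Nxph2 (limma, unadjusted p = 0.059) and Sparcl1 (unadjusted p = 0.062) missed the threshold. Nxph2 also missed it without control 3 or 4 or mutant 4 or 5, and Sparcl1 without control 3 or any mutant. The count of lower calls was 1 of 16 without control 3 and 2 of 16 without mutant 4. Nxph1, a further neurexophilin, had 31063, 48186, 21967 and 10545 in controls and 20374, 22540, 8054 and 5295 in mutants, a log2 fold change of -1.04 that did not pass (unadjusted p = 0.080). Cbln1, a cerebellin that joins neurexins to glutamate receptors of the delta type, was at -0.13 (unadjusted p = 0.78).

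Tafa3, 1 of the TAFA proteins that bind neurexins on their way to the surface, went the other way. It was listed at 0 in all 4 controls and had 42.7, 61.9, 61.5 and 66.5 normalized counts in mutant replicates 2, 3, 4 and 5, which correspond to 50 to 67 reads. Against a floor of 3 reads per control library, Tafa3 was at least 16.8-fold higher in mutants (limma, unadjusted p = 4.9e-05, adjusted p = 0.081). Its row covers chr3:104767405-104777547, where GENCODE also places the transcript Gm43584 on the same strand. The median of the list, -0.49, could not move with Tafa3 at this bound, because Tafa3 ranks highest in the list either way.

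None of the 10 membrane ligands was called, although 9 lay below 0 (median -0.32). Lrrtm3, a leucine-rich repeat ligand of excitatory synapses, had 9073, 10039, 7567 and 8293 normalized counts in control replicates 1, 3, 4 and 5 and 6779, 6417, 5567 and 5466 in mutant replicates 2, 3, 4 and 5. These did not overlap, and the log2 fold change of -0.53 (limma, unadjusted p = 0.012, adjusted p = 0.58) was short of 1.5-fold; Lrrtm3 was picked after its values were seen. Lrrtm1, the first gene of the list, was at -0.37 (unadjusted p = 0.068), also without overlap.

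On the postsynaptic side 0 genes were called, by either direction, in the 8 inhibitory-synapse partners (median -0.04) and in the 15 excitatory scaffolds (median -0.02), the groups that Nlgn2 and Nlgn1 are best known to work with. Mdga1, which blocks Nlgn2 from binding neurexins, was at 0.24 (unadjusted p = 0.48), and Dlg4, which encodes the scaffold PSD95, at -0.31 (unadjusted p = 0.46). Dlg4 had 1317, 3286, 1584 and 2023 normalized counts in control replicates 1, 3, 4 and 5 and 1976, 3122, 1076 and 877 in mutant replicates 2, 3, 4 and 5. The control range covered mutants 2 and 3, and mutants 4 and 5 lay below it.

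Among 13 proteins that bind the cytoplasmic tail of neurexins, 1 was called in each direction (median 0.10). Lin7b, of the complex of Cask with Mint proteins and Lin7, fell by 0.61 on the log2 scale (unadjusted p = 0.030), whereas Cask itself was at 0.10 (unadjusted p = 0.55). Epb41l2, a protein 4.1 family member, was higher by 0.73 (unadjusted p = 0.017). Without control 1 both missed a threshold, Lin7b with an unadjusted p of 0.051 and Epb41l2 with a log2 fold change of 0.51. With each library left out in turn, the log2 fold change ran from -0.73 to -0.48 for Lin7b and from 0.51 to 0.88 for Epb41l2.

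Of the 6 shedding proteases and splicing regulators (median 0.02), 0 were called lower and 1 higher. Adam10, a protease that sheds neurexin and neuroligin ectodomains, had 2084, 6295, 5393 and 4329 normalized counts in control replicates 1, 3, 4 and 5 and 6755, 7014, 6382 and 6596 in mutant replicates 2, 3, 4 and 5. All mutants were above all controls, by a narrow gap from control 3, and the log2 fold change was 0.68 (limma, unadjusted p = 0.049) and 0.34 without control 1 (unadjusted p = 0.088). The splicing regulators Khdrbs1, Khdrbs2 and Khdrbs3, which act on neurexin transcripts, were at 0.04, 0.01 and -0.33.

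Other cell types were followed with the same fit. Endothelial and mural markers had 4 of 10 called higher (median 0.53; sums of 224277 to 352965 in controls and 326235 to 346889 in mutants), and oligodendrocyte markers 3 of 10 called lower (median -0.62; sums of 227901 to 666183 and 198772 to 284492, the highest in control 1). Over all genes tested, 3.98% were called higher and 3.17% lower. Markers of excitatory neurons had 1 of 11 called in each direction (median -0.15). No marker was called for astrocytes (median -0.17, of 10), oligodendrocyte precursors (-0.17, of 8), microglia (-0.44, of 10) or interneurons of the caudal ganglionic eminence (-0.60, of 10). The first genes of these lists were Cldn5 at -0.13, Mbp at -0.64, Slc17a7 at -0.15, Aqp4 at -0.37, Pdgfra at 0.25, Cx3cr1 at 0.06 and Vip at -0.60 on the log2 scale. The part of these cell types in the values of the neurexin ligands, Sparcl1 included, was not tested.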

How the data were processed

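The deposited values are a signal, normalized counts: per the study's methods and the processing notes, the authors aligned paired-end reads to mm10 with STAR 2.4.0, counted those on constitutive regions of Fast DB genes, and divided them by a DESeq2 size factor per library. Libraries were made from 1 ng of RNA by the SMARTer kit, which does not mark strand. Whole reads were recovered by dividing by the smallest value above 0 (100% of values within 0.01 of a whole number). Columns of other samples numbered 0. Groups and replicate numbers came from the labels.

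Genes whose mean reached 10 in either genotype were fitted with limma 3.58.1 (trend) in R 4.3.3 on log2(normalized count + 1), with Benjamini-Hochberg adjustment over all 31171. Fold changes on that scale understate those of low genes. Differences between paralogs, of intron sums and of the row in Nlgn2 were tested by exact permutation over libraries. Alternatives included edgeR 4.0.16 and DESeq2 1.42.0 on recovered reads. The limma step was tested on simulated data. Gene positions, lengths and sequences came from GENCODE M21 (GRCm38, the same build as mm10), matched by symbol for 5 of 5 genes. Intron rows are unnamed rows of the table that lie between the exons of all GENCODE transcripts of the gene.

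The 5 genes and all lists were chosen with earlier results of these data known. Named besides them are Erbb4, Lhx6 and Rpl22, the first gene of each list, every called partner, and the 2 genes (mean of at least 100) nearest to each member over libraries. Nxph1, Car10, Khdrbs1, Khdrbs2, Khdrbs3, Lrrtm3 and the unnamed rows were added after their values were seen. A further gene of the partner lists is not reported here and was left out of their counts. The filter on intergenic background and the batches of the study were not used here.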

Additional observations from a re-analysis of the deposited data

Results flagged for a closer look

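In 70 groups of 4 libraries (1 genotype, 1 quantity), 2 held a library whose gap to its nearest neighbour was large for the range of the group by Dixon's test, where chance gives about 1 in 20. Nlgn1 in mutant 3 had 3487 normalized counts, against 2300 to 2479 in the other mutants. The ratio of the row in the last exon of Nlgn2 to Nlgn2 itself was 7.61 in control 1, against 1.05 to 1.68 in the other controls.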

How the results depend on the processing

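The Nlgn1 log2 fold change was 0.056 with quantile normalization, 0.0039 with edgeR and 7.1e-04 with DESeq2, whereas the other 4 members stayed below 0 under each scaling. Library weights called 3630 genes (1633 lower, 1997 higher), 1 of them Nrxn3 at -0.89. DESeq2 called 1573 genes lower, and the limit on the adjusted p gave 14 lower and 0 higher, 14 in all. Of the partners, 5 were called without a trend in limma (3 lower), 3 lower with quantile normalization and 1 higher with a mean of at least 100. Nlgn2 minus Nrxn2 was -0.074 as a difference of medians.

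The replicate block is a fit with the replicate number as a term, in which control 1 and mutant 2 have no counterpart and do not bear on the genotype difference. Deviations of libraries with the same number correlated at 0.1004, 0.0981 and 0.0823. The numbers were not taken as a pairing, because not all of these values were above 0.1 and no label makes them one. Values this close to the limit cannot settle the question, and whether libraries of the same number were handled together was not tested. Controls 1 and 3 correlated positively with mutants 2 and 3 (0.0226 to 0.1004), as did controls 4 and 5 with mutants 4 and 5 (0.0815 to 0.0981), and the other 8 values were negative (-0.115 to -0.0292). The study describes 2 RNA sequencing batches, but no label ties a library to a batch. No label names such sets, and the cause was not tested. With the block 3164 genes were called (1719 lower), and 2 of the 5 members, Nlgn3 (-0.59) and Nrxn3 (-0.85), were lower, as were 11 of the 13 partners called, 7 of them secreted ligands. With pairs of the same number Nlgn2 minus Nlgn3 was -0.14 and Nlgn2 minus Nrxn2 -0.30.

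Leaving out each library in turn gave 1194 (without mutant 4) to 3767 (without control 5) genes called, 515 to 1977 of them lower and 619 to 1792 higher. Of the partners 4 to 10 were called, 1 to 8 lower and 1 to 4 higher, and of the secreted ligands 1 to 6 lower. The log2 fold changes ran from -0.18 to 0.11 for Nlgn1, -0.60 to 0.21 for Nlgn2, -0.51 to 0.16 for Nlgn3, -0.42 to 0.051 for Nrxn2 and -0.77 to -0.38 for Nrxn3. The paralog differences ran from -0.19 to 0.42 for Nlgn1 minus Nlgn2, -0.057 to 0.33 for Nlgn1 minus Nlgn3, -0.014 to 0.24 for Nlgn1 minus Nrxn2, -0.087 to 0.37 for Nlgn2 minus Nlgn3, -0.18 to 0.17 for Nlgn2 minus Nrxn2, 0.065 to 0.97 for Nlgn2 minus Nrxn3 and -0.19 to 0.11 for Nlgn3 minus Nrxn2. Those of the intron rows ran from -0.20 to 0.11 (Nlgn1) and -0.32 to 0.020 (Nrxn3), and those of gene minus introns from -0.074 to 0.22 (Nlgn1) and -0.039 to 0.42 (Nrxn2). The cause of these shifts was not tested. Sums of Nlgn2 with the row in its last exon and the alternatives for unnamed rows were chosen after seeing the data.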
